A study of Caenorhabditis elegans with 4 samples.

Results

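The centre of chromosome V in Caenorhabditis elegans held 575 of the 5893 peaks that the authors called for REC-8 in their combined list. A peak belonged to the centre when its midpoint lay from 5900000 to 16550000 on chromosome V (WormBase WS220), a stretch of 10.65 Mb, so position alone chose the members and no measured value did. The nuclear chromosomes carried 5889 of the peaks and the mitochondrial genome the other 4. The same stretch held 209 peaks of replicate 1 and 188 peaks of replicate 2, and the arms of chromosome V held 441 peaks of the combined list.

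REC-8 is a kleisin, the subunit that closes the ring of the cohesin complex, and it is one of the forms used in meiosis. Cohesin then holds sister chromatids together and forms the base of the chromosome axis. Worm chromosomes are holocentric, with no single centromere, and each has a centre with little meiotic recombination between arms that recombine more. The pairing centre of chromosome V, where it finds its homologous partner, lies near its right end and so outside the stretch described here.

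The data came from sequencing of immunoprecipitated chromatin (ChIP-seq), in which fragments bound by an antibody are sequenced and places with many of them are called as peaks. Both REC-8 libraries, replicates 1 and 2, came from hermaphrodites of the strain fem-2(b245), with genotype fem-2(b245)III, kept at 20 degrees Celsius, and 2 input libraries were made from the same kind of worm. The gene fem-2 acts in sex determination, b245 is a temperature-sensitive allele of it, and every library carries it, so there is no wild-type group. The stage is labelled as young adult with a germline, whereas the growth protocol describes gravid adults, and whole worms were used, so germline and other tissues were not separated. Chromatin was crosslinked with EGS and formaldehyde, and the antibody was an affinity-purified rabbit polyclonal, REC-8 SDQ3914. The inputs were not analysed here, no sequencing depth is given for any peak, and nothing states that the replicates were separate cultures.

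The members were mostly narrow and low-scored, with a small number of strong and broad ones among them. Their median width was 293 bp, with quartiles of 198.5 and 507 bp and a range of 146 to 8257 bp. Their scores, which are the authors' own and have no stated scale, ran from 1.33 to 161.55 with a median of 7.76. Of the members, 343 (59.7%) scored below 10 and 42 (7.30%) scored 100 or more, where 5.98% of all nuclear peaks of the combined list scored 100 or more. Wider members tended to score higher, with a Spearman rho of 0.70 across the 575 members. They share libraries and a caller that derives both values from the same reads, so that rho is a description.

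REC-8 peaks were denser in the centre of chromosome V than in its arms in all 3 lists. The combined list had 54.0 peaks per Mb in the centre, against 36.8 in the left arm and 51.2 in the right arm. Replicate 1 had 19.6 peaks per Mb in the centre, 16.9 in the left arm and 15.8 in the right arm. Replicate 2 had 17.7 in the centre, 12.9 in the left arm and 16.2 in the right arm. The centre was thus the densest of these parts in each list, and the left arm was the least dense in the combined list and in replicate 2.

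The log2 ratio of the density in the centre to that in both arms together was 0.25 in replicate 1 and 0.30 in replicate 2. The mean was 0.28 ± 0.03 (SD, n = 2), with 2 of 2 replicates positive. An exact sign-flip test over the replicates gave a two-sided p of 0.5, the smallest that 2 replicates allow, so the test could not pass a threshold of 0.05. Against the left arm alone the mean log2 ratio was 0.33 ± 0.17 (SD, n = 2), and against the right arm alone 0.22 ± 0.14 (SD, n = 2). The ratio depended on where the border was set: with the centre trimmed by 500 kb at each side, and the trimmed parts counted as arms, the mean was 0.13. Leaving out the peaks of the longest run, described further on, gave 0.22, an alternative added after the data had been seen.

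**Figure D1:**
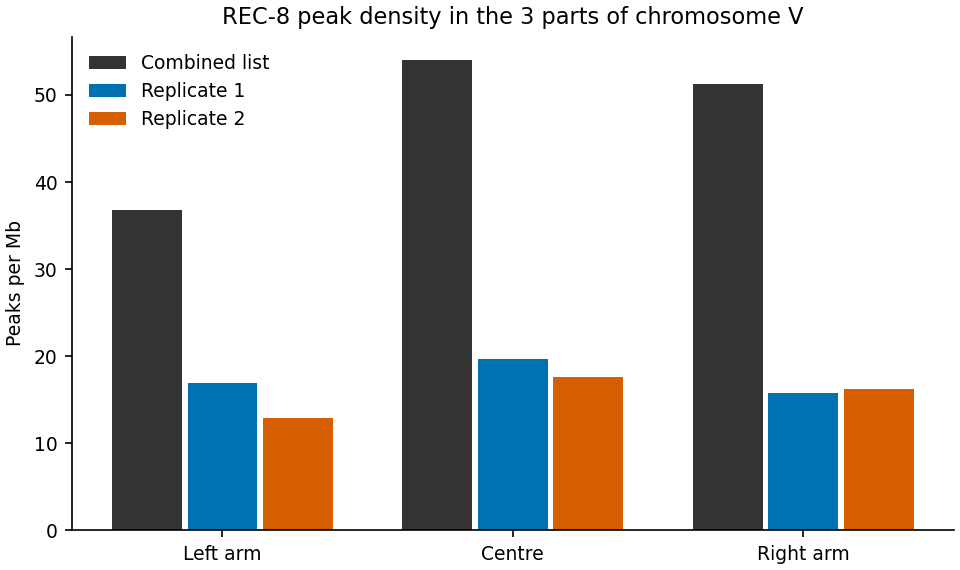
Peaks per Mb (vertical axis, from 0) in the left arm, the centre and the right arm of chromosome V, with a bar for the combined list and for each replicate list. The centre bar is the tallest in every list, at 54.0, 19.6 and 17.7 peaks per Mb, and each bar is a single list, so there are no error bars.

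Measured as covered bases, peaks of the combined list took up 2.56% of the centre, 1.87% of the left arm and 2.60% of the right arm. Replicate 1 peaks covered 1.35% of the centre, 1.04% of the left arm and 1.14% of the right arm. For replicate 2 these shares were 3.49%, 2.52% and 2.90%. Replicate 2 had wider peaks, with a median of 1541.5 bp in the centre against 469 bp in replicate 1. By this measure the right arm and the centre were close in the combined list, and the centre was the highest part in both replicates. The left arm was the lowest part in each list. All nuclear chromosomes together had 58.7 peaks per Mb in the combined list, 19.6 in replicate 1 and 20.2 in replicate 2. Chromosome V as a whole had 48.6 peaks per Mb in the combined list, so its centre was above the mean of its own chromosome and below the nuclear mean in that list.

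The density was uneven along the centre, and the replicates shared the outline of this profile in part. In windows of 1 Mb counted from the left border, the first held 78 members, the most of any, with 27 peaks of replicate 1 and 25 of replicate 2. The next window, from 6900000 to 7900000, held 43 members, 17 replicate 1 peaks and 11 replicate 2 peaks. A second high lay from 13900000 to 14900000, with 68 members, 27 replicate 1 peaks and 22 replicate 2 peaks. The window from 9900000 to 10900000 held 65 members, 23 replicate 1 peaks and 23 replicate 2 peaks, so replicate 2 had its second high there. The window from 11900000 to 12900000 held 42 members, 12 replicate 1 peaks and 15 replicate 2 peaks, the fewest members of any full window. For replicate 2 the lowest full window was instead the one from 6900000 to 7900000, with 11. The last window spans only 0.65 Mb and held 20 members, or 30.8 per Mb. The first window was thus the highest, or tied for it, in each list. It includes the longest run, which holds 23 members, 5 replicate 1 peaks and 10 replicate 2 peaks. Without that run it would hold fewer than the window from 13900000 to 14900000 in each list. The combined list draws on the same libraries and is not a separate measurement.

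**Figure D2:**
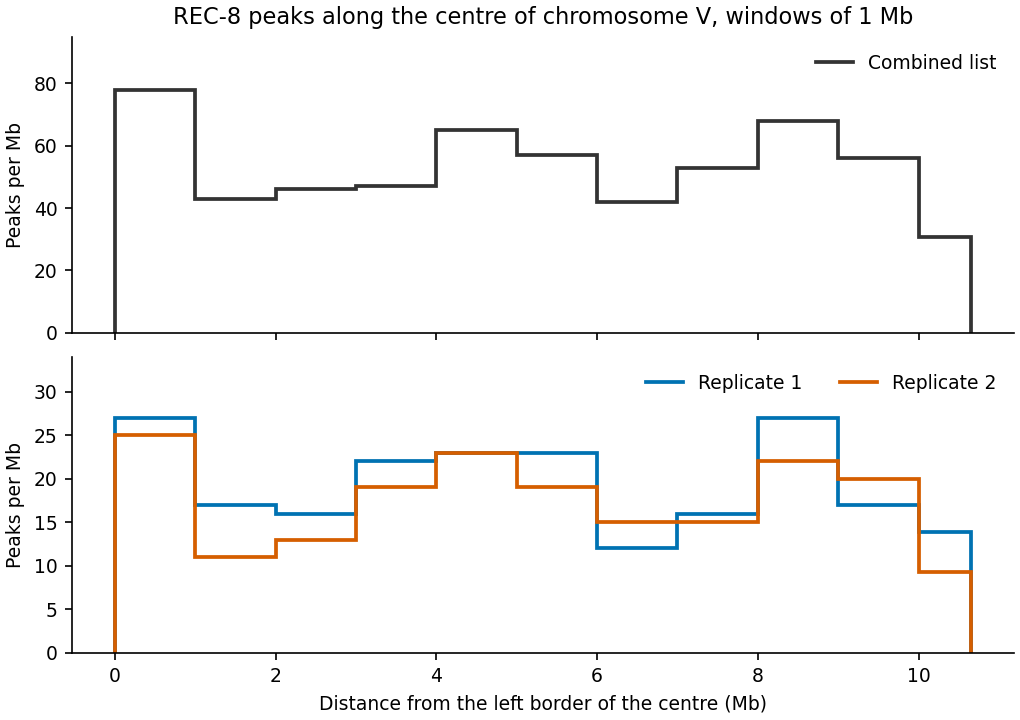
Peaks per Mb (vertical axes) in windows of 1 Mb, against the distance from the left border of the centre in Mb, for the combined list above and the replicate lists below; the last window is 0.65 Mb long. All 3 lines are highest or tied for highest in the first window, where the combined list reaches 78 peaks per Mb. That window includes the longest run, of 23 members, without which it would not be the highest in any list.

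At a finer scale the members lay in clumps separated by empty stretches. Of the 106 full windows of 100 kb, the median held 5 members, 4 held 0 and 14 held 10 or more. The fullest, from 6000000 to 6100000, held 26 members, 7 replicate 1 peaks and 11 replicate 2 peaks. The window from 6200000 to 6300000 followed with 17 members, 10 replicate 1 peaks and 6 replicate 2 peaks. Both lie in the first 500 kb of the centre, the part that the trimmed borders move to the arms. Next came 3 windows tied at 13 members each, from 14400000 to 14500000, from 15100000 to 15200000 and from 15500000 to 15600000. In that order, 8, 6 and 5 of their members were in neither replicate. A total of 19 windows held no peak of either replicate, and 15 of those 19 still held at least 1 member.

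Neighbouring members were a median of 7.36 kb apart from midpoint to midpoint, with quartiles of 1.36 and 28.5 kb. The median was 11.0 kb in the left arm, 6.93 kb in the right arm and 6.99 kb over all nuclear peaks of the combined list. The median spacing within the centre was 27.2 kb for replicate 1 peaks and 36.8 kb for replicate 2 peaks. Neighbours within 5 kb made up 45.3% of the intervals between members, against 33.7% for replicate 1 and 16.6% for replicate 2. In replicate 2 that share was 9.66% in the arms and 12.2% over all nuclear peaks, and without the longest run it was 12.4% in the centre. Leaving out that run brought the replicate 2 share near the nuclear one and left it above that of the arms, where no run was left out. In replicate 1 the share without the run was 33.5%.

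Members overlapped the replicate lists to an extent close to that of the whole combined list. Of the 575 members, 191 (33.2%) shared 1 bp or more with a replicate 1 peak, where 28.9% of all nuclear combined peaks did. A replicate 2 peak was overlapped by 293 members (51.0%), against 50.9% of all nuclear combined peaks. In all, 145 members (25.2%) overlapped both replicates, against 23.1% of nuclear combined peaks, and 236 (41.0%) overlapped neither, against 43.3%. Replicate 2 alone accounted for 148 members (25.7%, against 27.8%) and replicate 1 alone for 46 (8.0%, against 5.76%). On the arms of chromosome V the share in both was 25.6% and the share in neither 47.4%. The share in both replicates in the centre was thus near the background share and near that of the arms, and no difference was tested.

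The members in both replicates were the wide and high-scored ones. Their median width was 783 bp and their median score 50.2. Members in replicate 2 alone had a median width of 300.5 bp and a median score of 6.51, and members in replicate 1 alone 351.5 bp and 8.38. Members in neither had a median width of 215.5 bp and a median score of 5.51, and the widest of these 236 was 538 bp. Over all nuclear combined peaks the medians were 698 bp and 48.9 in both replicates, and 216 bp and 5.55 in neither. The contrast between these classes was thus not particular to the centre. With the members divided by score into 4 groups, 116 of the 144 highest-scored were in both replicates, and 0 of the 144 lowest-scored. All 42 members that scored 100 or more were in both replicates, with widths from 405 to 2844 bp and a median of 187 kb between neighbouring midpoints. Over all nuclear combined peaks, those in replicate 1 alone reached a score of 106.86 and those in replicate 2 alone 106.04. The nuclear shares by score are not given here. Since chance contact grows with width and the lists come from the same libraries, the sharing of wide and high-scored members is partly built in.

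**Figure D3:**
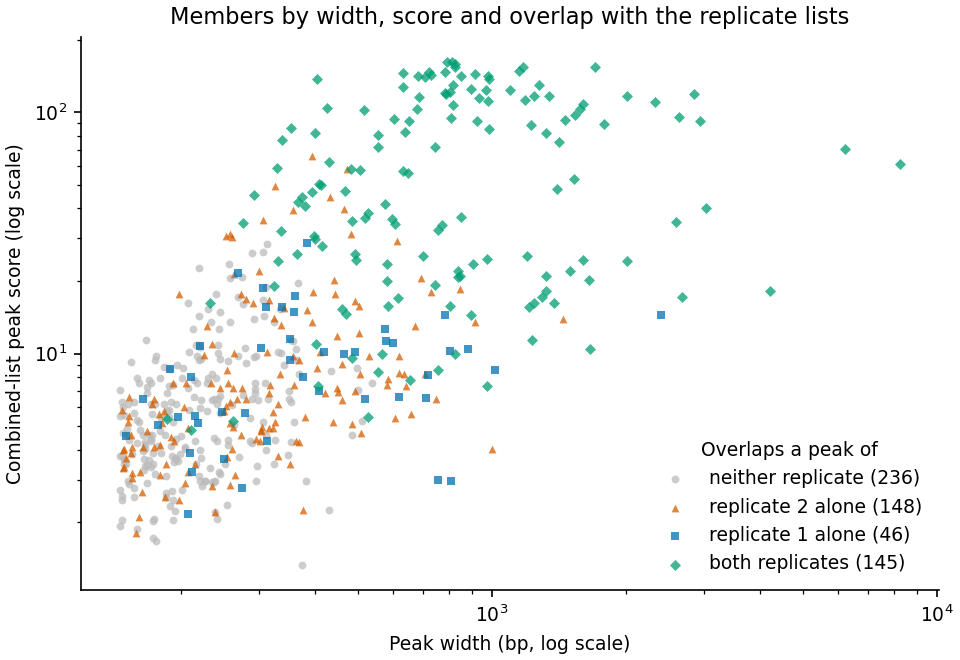
Score in the combined list against width in bp, both on log scales, for each of the 575 members, with marks for the replicate lists that each member overlaps. Members in both replicates fill the upper right, with a median width of 783 bp and a median score of 50.2, and members in neither lie at the lower left, with medians of 215.5 bp and 5.51.

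The weaker classes lay at different distances from the members shared by both replicates. Members in replicate 2 alone were a median of 3.72 kb from the nearest member in both, and 80 of 148 (54.1%) lay within 5 kb of one. Members in neither replicate were a median of 21.9 kb away, and 54 of 236 (22.9%) lay within 5 kb. For members in replicate 1 alone the median was 15.6 kb and 12 of 46 (26.1%) lay within 5 kb. Replicate 2 peaks are wide, so a single one can take in several neighbouring members. The 145 members in both replicates were themselves a median of 48.2 kb apart, with quartiles of 13.5 and 96.7 kb.

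Seen from the replicates, 202 of the 209 replicate 1 peaks in the centre (96.7%) and 188 of 188 replicate 2 peaks (100%) overlapped a peak of the combined list. Over all nuclear peaks these shares were 97.1% and 99.8%. A replicate 2 peak was overlapped by 161 of the replicate 1 peaks (77.0%), where 80.9% of nuclear replicate 1 peaks did so, and 127 of the replicate 2 peaks (67.6%) overlapped a replicate 1 peak, where 58.7% of nuclear ones did. The centre was thus below the background in one direction and above it in the other. Of the replicate 2 peaks, 71 covered 2 or more members, and the most was 6, in a peak of 5599 bp from 6938406 to 6944004. Of the replicate 1 peaks, 10 covered 2 or more members.

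At 72 places the match was one to one, with a single peak in each of the 3 lists. The midpoints of the replicate peaks there were a median of 45.5 bp apart. The median widths were 467 bp in replicate 1, 648.5 bp in the combined list and 1360.5 bp in replicate 2. The replicate 1 peak lay wholly inside the replicate 2 peak at 72 of 72 places. No replicate 2 peak of the centre was narrower than 1009 bp, so this nesting is partly built in. The member's score followed that of replicate 2 with a Spearman rho of 0.88 and that of replicate 1 with a rho of 0.65, and the replicate scores followed each other with a rho of 0.67. These coefficients describe 72 peaks that share libraries, and the combined score was computed by the authors from the same study.

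The strongest members stood at scores far above the median and were found in both replicates at high scores. The 10 highest-scored members in both replicates ran from 145 to 161.55 in the combined list and measured 631 to 1705 bp, with best scores of 441 to 3100 among replicate 1 peaks and 1252 to 3100 among replicate 2 peaks. The score of 3100 recurs in the replicate lists, at 7 replicate 1 peaks and 9 replicate 2 peaks of the centre, and no peak of the centre scored higher. The highest combined score, 161.55, was shared by the members from 12291276 to 12292089 and from 12343318 to 12344108. They had replicate 1 scores of 687 and 618, and replicate 2 scores of 1707 and 1772, in that order. Neither was among the replicate peaks scored 3100, so the lists did not rank the strongest places alike.

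The third member, from 15765951 to 15766775, scored 159, with 749 in replicate 1 and 1592 in replicate 2. It stood 106 kb from the member before it. The member from 13678193 to 13679018 scored 154 in the combined list, 441 in replicate 1 and 1615 in replicate 2. The member from 16547200 to 16548904 also scored 154 and was at 3100 in both replicates. Its midpoint is 1.95 kb inside the right border, and the next peak, from 16552597 to 16552826 with a score of 15.4, is 2.71 kb outside. At the left border the nearest member, from 5991750 to 5991915, scored 3.44 and was in neither replicate, and the nearest outside, from 5845824 to 5846070, scored 5.38.

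Some of the strongest members had weak members at their sides that a single replicate 2 peak took in. The member from 14685396 to 14686567 scored 154, with members of 5.44 at 0.363 kb on its left and of 4.93 at 0.32 kb on its right. Replicate 1 had a single peak of 835 bp there, with a score of 1986, and replicate 2 a single peak of 4085 bp, with a score of 1900. The member from 9087522 to 9088673 scored 149 and belonged to a run of 5 over 4.07 kb, in which a second member, from 9089580 to 9090210, scored 128. Replicate 1 had peaks at these strong members alone, with scores of 1937 and 1833, and replicate 2 had 1 peak of 4416 bp over the whole run, with a score of 3100. Of the remaining 3 of the 10, the member from 9789511 to 9790231 scored 146.3, with 140 kb free of members after it. The member from 10578588 to 10579370 scored 146.27, and the member from 6100455 to 6101085, which scored 145, closed the longest run.

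That run was the longest chain of members in the centre: 23 members over 30.0 kb, from 6071111 to 6101085, when gaps of up to 5 kb were allowed. It combined 4 strong members with 19 weak ones. The strong members scored 117, 140, 115 and 145 from left to right, with widths of 2012, 707, 685 and 631 bp. The weak ones scored from 2.26 to 15.42 with a median of 4.81, and were 148 to 421 bp wide with a median of 207 bp. The gaps between neighbours ranged from 78 to 3175 bp, with a median of 784 bp. The run was 17.6 kb from the member before it and 70.6 kb from the member after it.

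The replicates differed over the weak members of the run. Replicate 1 had 5 peaks there, all at the 4 strong members: 2 in the first, at scores of 1548 and 3100, and 1 in each of the others, at 3100, 1435 and 584. None of the 19 weak members overlapped a replicate 1 peak. Replicate 2 had 10 peaks, which overlapped the 4 strong members and 17 of the 19 weak ones. Its peaks at the strong members scored 3100, 2331, 1731 and 1747, and the other 6 scored from 59.9 to 154. The peaks at 2331, 1731 and 1747 overlapped 3, 3 and 2 members. Some weak members counted in replicate 2 thus lay under the peak of a strong member and had no separate peak there. Replicate 2 peaks covered 61.3% of the run, replicate 1 peaks 11.1% and the members 28.5%. The strong members were therefore seen in both replicates, and the members between them in replicate 2 or in neither.

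**Figure D4:**
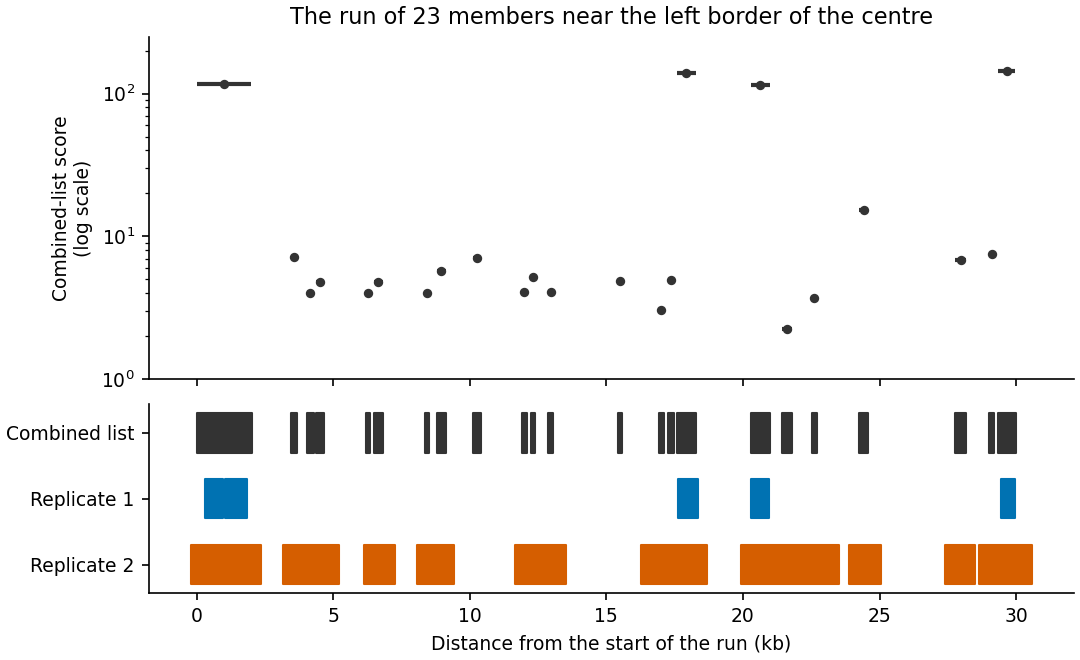
The longest run, against the distance from its start in kb: above, the combined-list score of each member on a log scale, drawn over its width, and below, the extent of the peaks in each list. The 4 members with scores from 115 to 145 have peaks in both replicates, and the 19 members at 2.26 to 15.42 have no replicate 1 peak.

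Runs of 5 or more members held 125 members in 18 runs, or 21.7% of the members, where 20.4% of all nuclear combined peaks were in such runs. A further 259 members were in 100 runs of 2 to 4, and 191 (33.2%) stood alone. The share standing alone was 32.7% in the left arm and 32.1% in the right arm. The next longest run had 9 members from 6219902 to 6231662, with scores from 2.90 to 23.57, of which 2 were in both replicates and 4 in neither. Then came 4 runs of 7. The run from 9425118 to 9440097 had 5 members in both replicates and ended in a member of 1459 bp that scored 93.0. The run from 11813599 to 11823349 had 4 members in both and a highest score of 20.9. The runs from 11917038 to 11927452 and from 11075699 to 11082269 had 1 member each in both replicates. None of these 5 runs held a member that scored 100 or more, unlike the longest run.

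A smaller run showed the opposite of the longest. From 6171660 to 6174965 it had 5 members with scores from 9.44 to 17.38, and all 5 overlapped replicate 1 alone. Replicate 1 had 2 peaks there, of 2659 bp with a score of 90.6 and of 809 bp with a score of 58.0, and replicate 2 had 0. A run of 4 members from 14411987 to 14415372, with scores from 3.79 to 8.27, had no peak in either replicate. These runs were chosen for their description after their values had been seen.

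Broad members of 1 kb or more numbered 46, or 8.0% of the members, where 7.68% of all nuclear combined peaks were as broad. They made up 32.7% of the bases that the members covered. Of the 46, 42 were in both replicates, 2 in replicate 1 alone, 2 in replicate 2 alone and 0 in neither. Among the 529 narrower members, 103 (19.5%) were in both. Over all nuclear combined peaks the widest in neither replicate measured 3399 bp, and on the arms of chromosome V 1086 bp. The share of broad nuclear peaks in both replicates is not given here. The broad members had a median score of 57.1, against 7.2 for the narrower ones, with a range of 4.04 to 154. Of the 46, 18 overlapped 2 or more replicate 1 peaks, some of which reached in from a neighbouring member. By contrast, 0 overlapped 2 or more replicate 2 peaks. The narrowest replicate 2 peak of the centre measured 1009 bp, against 140 bp in replicate 1, so this contrast is partly built in. Of the 46, 13 were 2 kb or wider.

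The widest member, 7916788 to 7925044, spanned 8257 bp, scored 61.2 and stood at the end of a larger domain. Just before it lay a member from 7912570 to 7914353 that scored 89.2 over 1784 bp. Another, from 7915461 to 7916684, scored 88.3 over 1224 bp. Replicate 2 joined all 3 in a single peak of 13185 bp with a score of 3100, the widest replicate 2 peak of the centre. Replicate 1 had 3 peaks over the domain, of 1558, 640 and 8479 bp with scores of 2951, 336 and 3100, and the last of them began inside the second member and covered nearly all of the widest. The 8479 bp peak was the widest replicate 1 peak of the centre. The combined score of the widest member was below those of its narrower neighbours.

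The second widest, 9338456 to 9344655 with 6200 bp, scored 70.1 and was a single peak in each replicate, of 6077 and 6756 bp, with a score of 3100 in both. Unlike the first, it had no other member within 5 kb. The third, of 4215 bp from 10605630 to 10609844, scored 18.2 and was followed by members of 2009 and 407 bp up to 10612466. Replicate 2 joined these 3 in a peak of 7627 bp with a score of 1654. Replicate 1 had peaks of 4419 and 2501 bp there, with scores of 482 and 289. The fourth, of 3029 bp from 15567217 to 15570245, scored 40.2, and replicate 1 split it into peaks of 1657 and 941 bp. The fifth, of 2941 bp from 15320317 to 15323257, scored 91.8 and was at 3100 in both replicates. None of these 5 was among the 42 members that scored 100 or more. The next widest member, of 2844 bp from 9601360 to 9604203, did score above that limit, at 119.

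Long stretches without a peak were shared by the replicates, and the longest of these ended at a member with the highest score. The longest stretch with no peak in either replicate ran from 11980156 to 12290857, or 311 kb. It held 4 members with scores from 6.28 to 7.59. It ended at the member from 12291276 that shares the highest score, 161.55, and the other member with that score lies 52.0 kb further on, from midpoint to midpoint. The second, of 277 kb from 12728964 to 13006373, held 8 members with scores from 3.49 to 19.5. Its right end was a much weaker member, from 13006583 to 13007236, which scored 7.8 and was in both replicates, at 52.9 in replicate 1 and 79.0 in replicate 2. The right ends of these 2 stretches thus differed in strength, and the ends of other shared stretches were not compared. In replicate 1 alone the gap around the second stretch reached from 12659846 to 13006636, or 347 kb, with 2 replicate 2 peaks inside. In replicate 2 alone the longest gap was 357 kb, from 11933928 to 12290857, with 1 replicate 1 peak inside. The remaining long gaps were 292 kb in replicate 1, from 11521938 to 11813564 with 1 replicate 2 peak inside, and 302 kb in replicate 2, from 15942640 to 16244288 with 2 replicate 1 peaks inside.

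**Figure D5:**
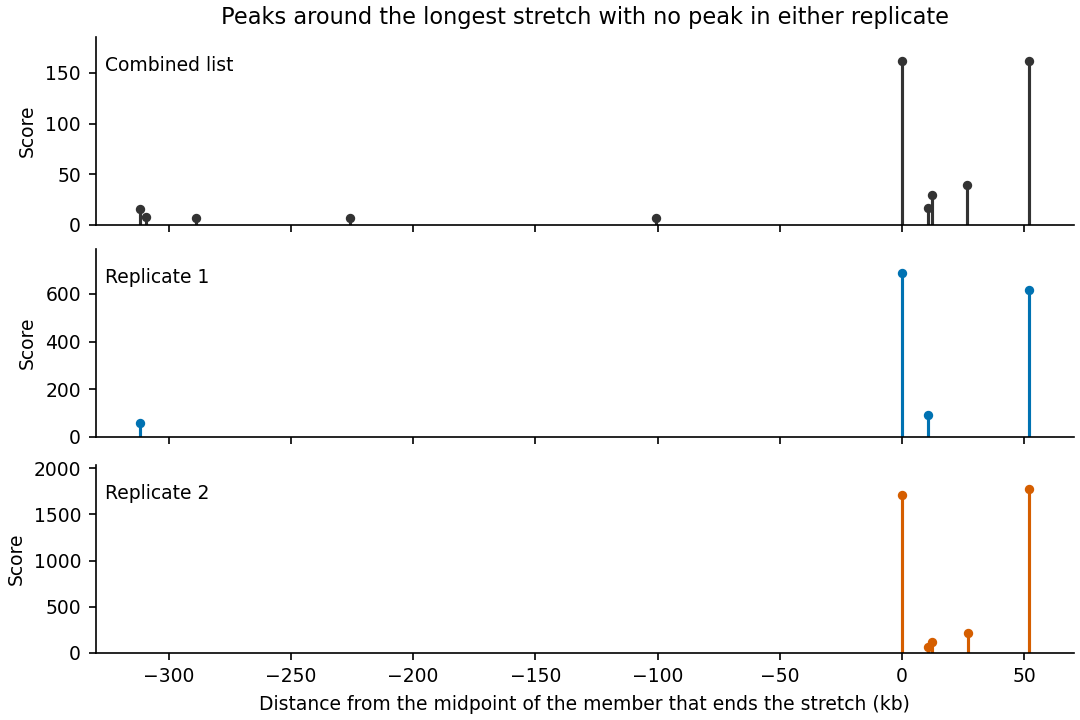
Peak scores in the combined list, replicate 1 and replicate 2 (each on its own linear axis from 0), against the distance in kb from the midpoint of the member that ends the longest stretch empty in both replicates. Each line and point is a peak: to the left of 0 the members score at most 15.65, and at 0 the score is 161.55 in the combined list, 687 in replicate 1 and 1707 in replicate 2.

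In the combined list the longest gaps between neighbouring members were shorter. They measured 179 kb from 7237449 to 7416297, 165 kb from 15978491 to 16143397 and 140 kb from 9790232 to 9930651, and held no peak of either replicate. The member that opens the longest of them, from 7237137 to 7237448 with a score of 28.5, was the highest-scored of all members in neither replicate, and its midpoint was 16.1 kb from the nearest midpoint of a replicate peak. The next highest in neither were from 15298609 to 15298913, at 26.3, and from 15189544 to 15189831, at 26.1. Those were 2.44 and 2.0 kb from the nearest replicate midpoint. The lowest-scored member, from 10471171 to 10471544 at 1.33, was also in neither replicate.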

How the data were processed

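The authors' 3 deposited peak lists were used, 1 per ChIP replicate and a combined one. Reads were aligned to ce10 with BWA, per the submitters' processing notes. Peaks are on WS220, per the file headers, and were called with MACS (replicates) and MACS v2 (combined), per the source columns. The deposited score is the peak caller's, and its scale, the thresholds, the versions and any use of the inputs are not stated in the labels or headers, so the combined and the replicate scores were compared by rank only.

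Midpoints, widths, overlaps of at least 1 bp, gaps and runs (gaps of up to 5 kb) were computed with Python 3.11.15, numpy 2.4.6, pandas 2.3.3 and scipy 1.17.1, and drawn with matplotlib 3.10.9. The interval code was tested on simulated peaks. The extent of chromosome V, 20924180, is the largest peak end over the lists. Each replicate gave 1 value, and a two-sided exact sign-flip test compared the centre with the arms. Peaks are not replicates, so no test ran over peaks. With 2 replicates of the same sign the sign-flip p is 0.5 whatever their spread, so it does not measure that spread.

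Named peaks were the 10 highest-scored in both replicates, the 5 widest, the 3 highest-scored in neither, the longest run peak by peak, the 5 longest runs, the 3 longest gaps per list, the 3 densest windows of 100 kb, and the lowest and highest scores. The members, lists and tests were chosen with earlier results of these data known. Alternatives are given in the closing section. Genes and sequences at the peaks were not analysed here, since the only gene table used is of another build, WBcel235.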

Additional observations from a re-analysis of the deposited data

How the results depend on the processing

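The 7 results were recomputed in 35 alternatives: 22 stayed with the main value, 13 moved and 0 reversed. Staying meant the same direction for tested density ratios, and within 1 SD of the replicates for those of a single list. For counts it meant within 1.5 times, and for medians within a 95% binomial interval. With 2 replicates, each lies within 1 SD of their mean by construction, so leaving 1 out could not move the density ratio. Counts and medians have no sign, so only the density ratio could reverse. The binomial interval treats the members as independent, which peaks of 1 list are not, so it serves as a label and not as a test. The log2 ratio of centre to arm density was 0.33 in the combined list alone and ranged from 0.25 to 0.30 with a replicate left out. In the higher-scored 50% of each list, 81 of 270 members were in both replicates and 132 in neither, the median width was 477 bp, the median spacing 25.4 kb and 15 members were in runs of 5 or more, with fewer peaks by construction. With a replicate left out, members in the remaining one numbered from 191 to 293, the higher without replicate 1, and members outside it from 282 to 384. Merging peaks within 500 bp gave a median width of 325 bp, a median spacing of 13.1 kb and 73 broad members, since merged peaks are fewer and wider. A gap of up to 2 kb put 76 members in runs, and a width limit of 2 kb left 13 broad members. The 3 alternatives without the longest run were added after the data were seen, and so were the shares of close neighbours without it. No paired analysis was possible because the shared replicate numbers pair ChIP with input libraries, and the 3 lists used here hold no values of the inputs. Without depths, a place without a peak cannot be read as free of REC-8.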

Other observations

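In the centre, 7 replicate 1 peaks overlapped no member and no replicate 2 peak. The highest-scored, from 14834727 to 14835161, scored 104 and was 435 bp wide, and the other 6 scored from 50.8 to 70.0 with widths from 149 to 216 bp. The lowest score in the replicate 1 list for the centre was 50.1, so these 6 lay near the lower end of that list.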
